A study of Mus musculus with 10 samples.

Results

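The genes described here are 39 of a list of 40: Myc, 6 genes of the RNA polymerase I machinery and nucleolar factors that process ribosomal RNA. They were taken by gene symbol from 2 tables of RPKM (read counts scaled to gene length and to library size), which list 17658 and 16719 genes, and the member Noc2l was not analysed here. Both tables come from ASZ001, 1 mouse basal cell carcinoma line grown in culture, kept for 24 h in medium with 0.2% serum. In 1 experiment 3 libraries of cells given 10 µM SB431542, an inhibitor of the TGFß receptor kinase ALK5, were set against 3 DMSO libraries, and in the other 2 libraries of cells given 20 µM T-5224, an inhibitor of the transcription factor AP-1, were set against 2 DMSO libraries of their own. A library is one biological replicate per the study's methods, and the labels name no transgene or knockdown in any group. The question put to these data was how the nucleolar genes stood when TGFß or AP-1 signaling was blocked.

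Ribosomes are built mainly in the nucleolus. RNA polymerase I transcribes a long ribosomal RNA precursor there, small nucleolar ribonucleoproteins (snoRNPs) guide its chemical modification, and large sets of factors cut it and fold it into the small and the large ribosomal subunit. Myc is a transcription factor best known for driving growth, and genes of ribosome biogenesis are among its classic targets. With its partner Max it binds the DNA sequence called the E-box.

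Treated libraries were set against the DMSO controls of the same table on log2(RPKM + 0.5) with limma, and a gene passed if its adjusted p was under 0.05, whatever the size of its fold change. All 39 genes had a mean of at least 1 RPKM in both tables and were tested. Most of them rose with T-5224: 35 were higher and 1 was lower, where 40.3% of all genes tested were higher and 39.4% lower. The median log2 fold change of the 39 was 0.82, against 0.003 for all genes tested, and 15 rose by over 2-fold, as did 10.4% of all genes (10.6% fell by over 2-fold). In 37 of the 39 both T-5224 libraries lay above both DMSO libraries, and in 2 below, beside 45.1% and 44.5% of all genes. With SB431542 13 of the 39 were higher and 0 were lower, beside 10.2% and 10.0% of all genes, the median was 0.19 against 0.008 for all genes, and 0 changed by over 2-fold, as 0.581% of all genes did downwards and 0.231% upwards. At an unadjusted p under 0.05, 0 were lower and 21 were higher with SB431542, beside 17% and 19.1% of all genes. The 13 genes that rose with SB431542 also rose with T-5224. They were 33.3% of the 39, beside 7.08% of the 10462 genes tested in both tables. As 35 of the 39 were higher with T-5224, most of any 13 of them would be too. Of all genes that rose with SB431542, 741 also rose with T-5224, 189 fell and 125 did not pass. The experiments share no libraries.

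**Figure D1:**
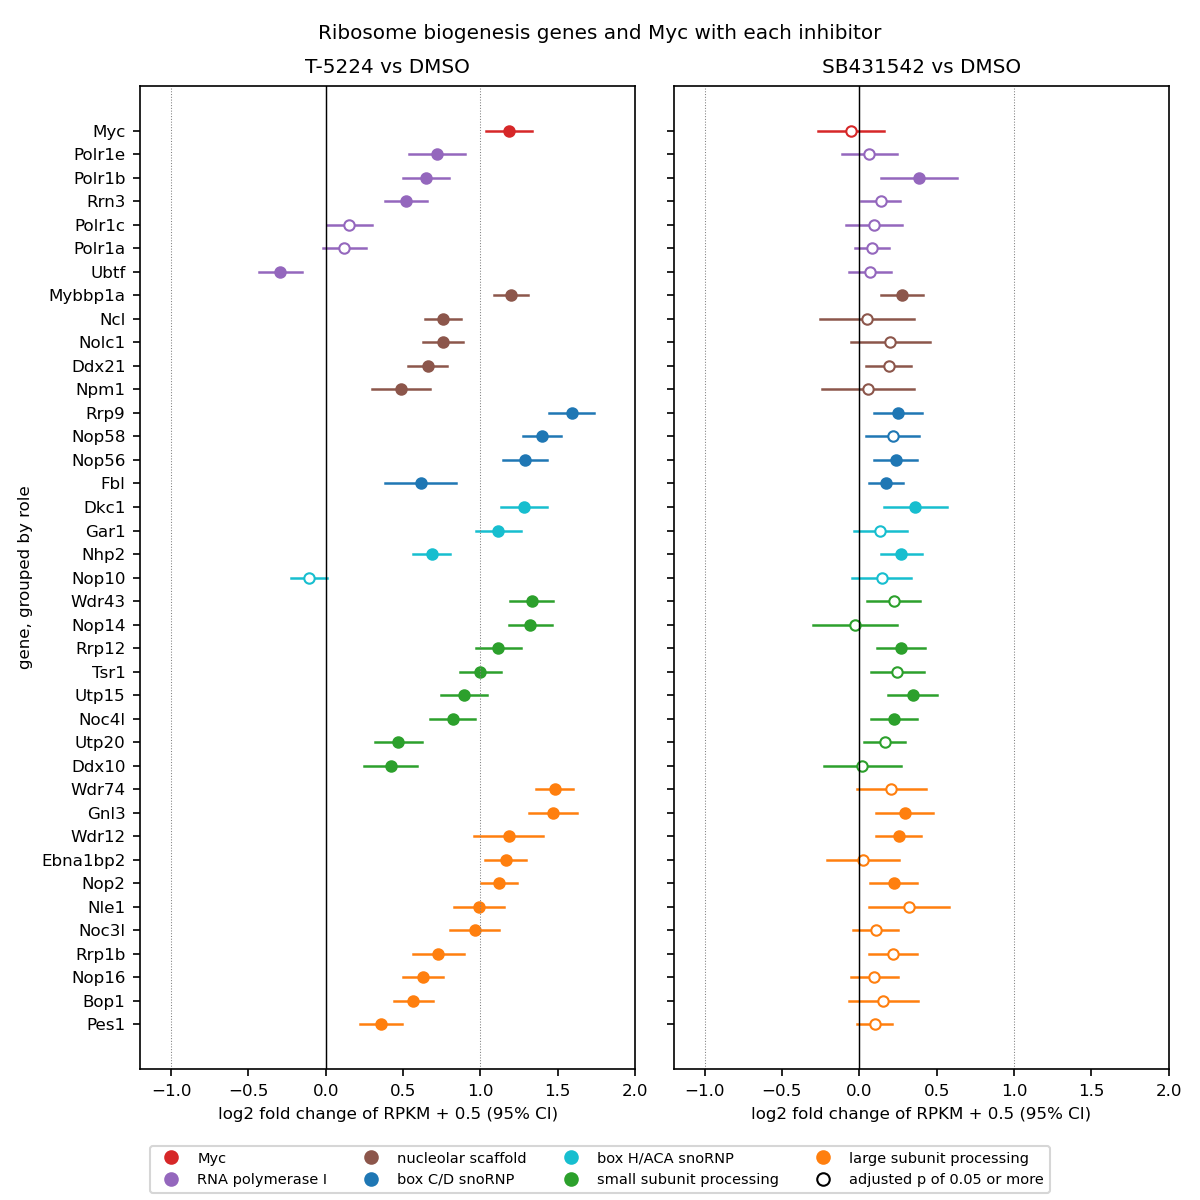
Log2 fold change of RPKM + 0.5 (x axis) of each of the 39 genes (y axis, grouped and coloured by role) with T-5224, left, and SB431542, right, with 95% confidence intervals from limma as bars. Filled points passed at an adjusted p under 0.05 and open points did not. With T-5224 the points run from -0.29 (Ubtf) to 1.59 (Rrp9), and with SB431542 from -0.06 (Myc) to 0.39 (Polr1b).

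Cell type markers showed what the libraries hold. The sums of the 5 keratinocyte markers (Krt14, Krt5, Trp63, Itga6, Cdh1) came mostly from Krt14 and Krt5. They were 9178 to 9342 RPKM in the DMSO libraries of the SB431542 table and 6401 to 6855 RPKM with the inhibitor. In the T-5224 table they were 11702 to 12353 RPKM and 1564 to 1624 RPKM. With SB431542 Krt14 (-0.81 on the log2 scale) and Krt5 (-0.30) fell, and the other 3 markers did not pass. With T-5224 all 5 fell, beside 39.4% of all genes. Their fall with T-5224 ran opposite to the rise of the nucleolar genes, and its part in that rise was not tested. Of the 4 Hedgehog markers of basal cell carcinoma, the 3 and the 4 that were listed summed to 5.82 to 6.29 RPKM with DMSO and 4.64 to 5.15 RPKM with SB431542, and to 9.69 to 9.96 RPKM with DMSO and 4.95 to 5.04 RPKM with T-5224. Among them Gli1 fell with both inhibitors (-0.60 and -1.66 on the log2 scale) and Gli2 with T-5224 (-1.02), where Ptch1 rose (0.34). Some of the listed markers of other cells were at or near 0: Col1a1 reached 0.102 RPKM, Ptprc 0.012 RPKM, Lyz2 0.077 RPKM, Tek 0.192 RPKM and Pmel 0.426 RPKM. Others of the same lists, Cd68, Pecam1 and Dcn, were not. Summed immune markers, nearly all from Cd68, were at 7.09 to 10.5 RPKM with DMSO and 7.75 to 8.33 RPKM with SB431542, and at 16.7 to 18.6 RPKM with DMSO and 32.7 to 33.2 RPKM with T-5224. Endothelial markers, nearly all from Pecam1, summed to 5.30 to 6.74 RPKM against 2.74 to 2.99 RPKM and to 10.9 to 11.97 RPKM against 4.13 to 4.67 RPKM. Fibroblast markers, mostly from Dcn, summed to 2.43 to 2.63 RPKM with DMSO and 3.68 to 4.13 RPKM with SB431542, and to 2.53 to 2.58 RPKM with DMSO and 2.60 to 2.82 RPKM with T-5224, and Dcn rose in both (0.68 and 0.35 on the log2 scale). The part of these markers in the results was not tested. In bulk RNA, fewer cells of a type and less RNA per cell cannot be told apart.

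Library depth lay between 31.9 and 51.4 M reads. Both T-5224 libraries (51.4 and 49.3 M) were deeper than both of their DMSO libraries (31.9 and 39.1 M). In the SB431542 table the groups overlapped in depth. The part of depth in the results was not tested. The log2 values of each library were set against the mean of the other libraries of its group. DMSO library 1 of the SB431542 table stood apart, with a standard deviation of 0.272, where the other libraries of that table were at 0.123 to 0.190. In the T-5224 table, where each group leaves 1 other library, the values were 0.162 with DMSO and 0.123 with T-5224. They are not on the same scale. DMSO library 1 of the SB431542 table also held 770 RPKM of Rn45s, the ribosomal RNA precursor that RNA polymerase I makes. DMSO libraries 2 and 3 held 2101 and 2155 RPKM, and the SB431542 libraries 1868 to 2229 RPKM. Rn45s in the T-5224 table was at 3401 and 3473 RPKM with DMSO and at 1862 and 5184 RPKM with T-5224, so the groups overlapped. The libraries were made by selecting mRNA, which lacks most ribosomal RNA, so these values are not a measure of ribosomal RNA output.

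Myc lies on chromosome 15 (mm9, chr15:61816946-61821929, + strand). In the T-5224 experiment it was at 31.8 and 36.3 RPKM with DMSO and at 78.4 and 77.2 RPKM with T-5224. Both treated libraries lay above both controls, as in 45.1% of all genes tested. The log2 fold change of Myc was 1.18 (SE 0.07, adjusted p = 1.83e-08, limma), a 2.27-fold rise. In the SB431542 experiment Myc was at 60.5, 49.2 and 47.9 RPKM with DMSO and at 48.2, 50.6 and 52.0 RPKM with SB431542. Here the groups overlapped, the log2 fold change was -0.06 (SE 0.09, 95% confidence interval -0.27 to 0.16) and the adjusted p was 0.699. The highest control is DMSO library 1, and without it the log2 fold change was 0.05. Over the fits with 1 library left out the log2 fold change ran from -0.12 to 0.05.

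The promoters of the members were searched for the E-box of Myc and Max, written CACGTG, and for the AP-1 site, written TGANTCA, both of which read the same on the 2 strands and do not overlap. RefSeq promoter sequences, from 250 bases before to 50 bases after the start of transcription (GRCm38.p6, placed on mm9 by an exact single match), were found for 34 of the 39 members, and a gene with several starts was counted once. The E-box was in 8 of the 34 (23.5%), beside 12.5% of 8699 tested genes and 8.09% of 27025 genes of the promoter table. In the 200 bases before the start it was in 2 of 34 (5.88%), beside 9.35% and 6.0%, so most of the matches in the members lay after the start. The AP-1 site was in 0 of 34 members, beside 6.0% and 8.97%. The 9 E-boxes are shown in capitals with up to 11 bases on either side, because they are all the matches that were found in these windows.
Nop2, chr6:125081830-125081857, + strand, upstream: tgtccctggatCACGTGtgttccggtgc
Rrn3, chr16:13780566-13780593, + strand, upstream: agcgccaaggtCACGTGcacacgcctct
Rrn3, chr16:13780733-13780760, + strand, upstream: tacgctctgctCACGTGggccgcgtccc
Pes1, chr11:3863969-3863996, + strand, untranslated part of an exon: cctaggcagggCACGTGcgggaggaagt
Wdr43, chr17:71965561-71965588, + strand, untranslated part of an exon: gcccgggcgaaCACGTGgctgccgcgga
Nle1, chr11:82721858-82721885, - strand, untranslated part of an exon: cggttctcctcCACGTGgggacgcagga
Tsr1, chr11:74711595-74711622, + strand, untranslated part of an exon: cacttggtgcaCACGTGgactgcagaat
Utp20, chr10:88289510-88289533, - strand, untranslated part of an exon: ggcactaactaCACGTGaggaaaa
Mybbp1a, chr11:72254858-72254878, + strand, untranslated part of an exon: tcttctgagccCACGTGtttg
With T-5224 the 8 members with an E-box had log2 fold changes from 0.36 (Pes1) to 1.33 (Wdr43), median 0.995. They lay within the range of the other 31 members, -0.29 to 1.59, median 0.76. The 31 include the members for which no promoter sequence was found, which were not searched. A match of 6 letters is a description and not a bound site.

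Rrn3, the initiation factor that makes RNA polymerase I competent to start, is the one member whose window held 2 E-boxes, which begin at positions -215 and -48 from its start. The 250 bases before the start (mm9, chr16:13780542-13780791, + strand) are shown with both in capitals to give their spacing.
Rrn3: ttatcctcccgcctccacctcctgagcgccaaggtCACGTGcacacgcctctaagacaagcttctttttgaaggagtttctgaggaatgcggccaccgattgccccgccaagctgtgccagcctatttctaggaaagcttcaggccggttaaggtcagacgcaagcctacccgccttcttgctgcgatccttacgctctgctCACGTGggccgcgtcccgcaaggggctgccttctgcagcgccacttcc
Rrn3 was at 32.3 and 29.4 RPKM with DMSO and at 45.2 and 43.5 RPKM with T-5224. Its treated libraries both lay above both controls, as in 45.1% of all genes tested. Rrn3 rose by a log2 fold change of 0.52 (SE 0.06, adjusted p = 1.25e-05).

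The RNA polymerase I members had the lowest median log2 fold change of the roles with T-5224, 0.34. Besides Rrn3, the subunits Polr1b and Polr1e rose, Ubtf fell, and Polr1a and Polr1c did not pass. Of the 6, 50% were higher and 16.7% lower, beside 40.3% and 39.4% of all genes. Polr1b, one of the large catalytic subunits, was at 12.1 and 11.4 RPKM with DMSO and at 19.0 and 18.4 RPKM with T-5224, a log2 fold change of 0.65 (SE 0.07, adjusted p = 3.53e-06). Polr1e, which helps to bind initiation factors, went from 4.82 and 4.73 RPKM to 8.43 and 7.96 RPKM, a log2 fold change of 0.72 (SE 0.08, adjusted p = 7.09e-06). Ubtf, the factor that binds ribosomal DNA and keeps it open, ran the other way. It was at 24.1 and 25.1 RPKM with DMSO and at 20.5 and 19.4 RPKM with T-5224, a log2 fold change of -0.29 (SE 0.06, adjusted p = 1.08e-03), and was the only member that fell. The largest subunit, Polr1a, was at 20.5 and 21.7 RPKM and at 23.5 and 22.5 RPKM (log2 fold change 0.12, SE 0.06, adjusted p = 0.1002). Polr1c, a subunit shared with RNA polymerase III, was at 43.3 and 39.0 RPKM and at 47.7 and 43.9 RPKM (log2 fold change 0.15, SE 0.07, adjusted p = 0.0543). For both genes the T-5224 libraries lay above the DMSO libraries by less than the test required.

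With SB431542 1 of the 6 RNA polymerase I genes passed (16.7%), beside 10.2% of all genes that were higher. Polr1b was at 10.5, 13.8 and 14.0 RPKM with DMSO and at 16.6, 16.9 and 16.7 RPKM with SB431542, a log2 fold change of 0.39 (SE 0.11, adjusted p = 0.0399), the largest among the 39 genes. Its lowest value came from DMSO library 1, and its log2 fold change without that library was 0.26. Rrn3 was at 37.2, 40.4 and 40.2 RPKM and at 41.9, 43.7 and 44.1 RPKM (0.14, adjusted p = 0.118), with no overlap. Polr1a was at 27.2, 26.9 and 26.6 RPKM and at 27.9, 28.9 and 28.7 RPKM (0.08, adjusted p = 0.246). Neither of these passed, although every treated library lay above every control, as in 23.9% of all genes. For Polr1c, at 28.6, 33.9 and 34.0 RPKM and at 33.3, 34.2 and 35.4 RPKM, the groups overlapped (0.10, adjusted p = 0.407). Polr1e, at 6.46, 5.71 and 6.47 RPKM and at 6.53, 6.10 and 6.92 RPKM, and Ubtf, at 34.9, 31.2 and 31.5 RPKM and at 33.8, 33.8 and 34.7 RPKM, overlapped too, with log2 fold changes of 0.06 and 0.07.

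**Figure D2:**
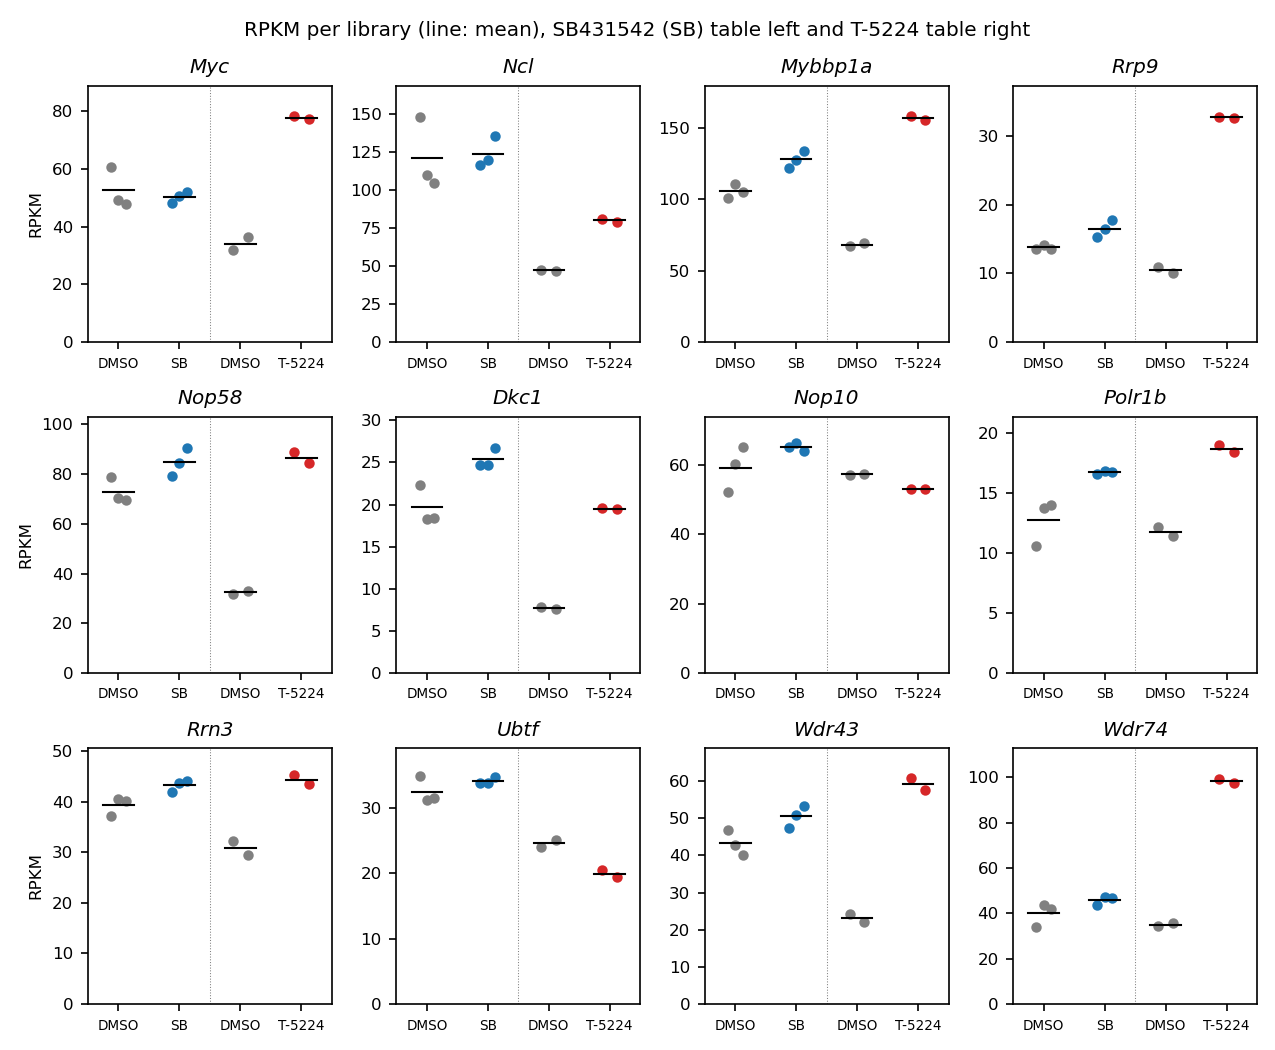
RPKM (y axis, from 0) of 12 of the genes in every library, as points with the group mean as a line, with the 3 DMSO and 3 SB431542 (SB) libraries left and the 2 DMSO and 2 T-5224 libraries right in each panel. The T-5224 libraries of Myc, at 78.4 and 77.2 RPKM, lie clear of their DMSO libraries, at 31.8 and 36.3 RPKM, while the T-5224 libraries of Ubtf and Nop10 lie below theirs. The sides of a panel were normalized in separate tables.

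The 5 nucleolar scaffold and multifunctional proteins all rose with T-5224, where 40.3% of all genes did. Mybbp1a, which takes part in ribosomal RNA processing and polymerase I transcription, was at 66.9 and 69.3 RPKM with DMSO and at 158 and 155 RPKM with T-5224, a log2 fold change of 1.198 (SE 0.05, adjusted p = 1.85e-09). Ncl, nucleolin, the abundant protein that binds precursor ribosomal RNA, went from 47.7 and 46.5 RPKM to 81.1 and 78.9 RPKM, a log2 fold change of 0.76 (SE 0.05, adjusted p = 1.10e-07). Nolc1, a chaperone of snoRNPs, rose by 0.76, the helicase Ddx21 by 0.66 and the histone and ribosome chaperone Npm1 by 0.49. Both T-5224 libraries of each of these genes lay above both DMSO libraries, as in 45.1% of all genes tested.

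Under SB431542 1 of the 5 passed (20%), beside 10.2% of all genes that were higher, and that was Mybbp1a. It was at 101, 111 and 105 RPKM with DMSO and at 122, 128 and 134 RPKM with SB431542, a log2 fold change of 0.27 (SE 0.06, adjusted p = 0.0190). Nolc1 was at 81.7, 63.0 and 62.3 RPKM and at 75.02, 76.6 and 84.7 RPKM, with a log2 fold change of 0.20 (adjusted p = 0.232). The control that overlaps the treated libraries is DMSO library 1. The same library held the highest value of Ncl, 148 RPKM against 110 and 105 RPKM in the other controls and 117, 120 and 135 RPKM with SB431542, and of Npm1, 829 RPKM against 608 and 598 RPKM and 677, 669 and 748 RPKM. Npm1 had the highest mean RPKM of the 39 genes in the DMSO libraries of either table. Without that library the log2 fold changes of Nolc1, Ncl and Npm1 were 0.33, 0.20 and 0.21. These were the highest values with 1 library left out, and the lowest were 0.13, -0.044 and -0.026.

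Box C/D snoRNPs carry the enzyme that adds methyl groups to ribosomal RNA, and their 4 genes had the largest rise of all roles with T-5224, with a median log2 fold change of 1.34. Rrp9, the protein that marks the U3 snoRNP, had the largest fold change of the 39. It was at 10.96 and 10.1 RPKM with DMSO and at 32.7 and 32.6 RPKM with T-5224, a log2 fold change of 1.59 (SE 0.07, adjusted p = 1.47e-09) or 3.01-fold. The core protein Nop58 went from 31.9 and 33.1 RPKM to 88.9 and 84.5 RPKM, a log2 fold change of 1.40 (SE 0.06, adjusted p = 1.04e-09). Its partner Nop56 rose by 1.29. Fbl, fibrillarin, the methyltransferase itself, rose less, by 0.61 (SE 0.10), from 4.96 and 5.84 RPKM to 7.81 and 9.28 RPKM. Its DMSO mean was 5.40 RPKM here and 88.2 RPKM in the SB431542 experiment. The cause was not tested, so the level and the change of Fbl are uncertain.

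All 4 box C/D genes also had every SB431542 library above every DMSO library, as did 23.9% of all genes. Of the 4, 3 passed as higher (75%), beside 10.2% of all genes. Rrp9 was at 13.5, 14.2 and 13.6 RPKM with DMSO and at 15.3, 16.5 and 17.7 RPKM with SB431542, a log2 fold change of 0.25 (SE 0.07, adjusted p = 0.0368). Nop56 was at 75.3, 70.5 and 70.5 RPKM and at 82.0, 82.6 and 90.5 RPKM, a log2 fold change of 0.24 (SE 0.06, adjusted p = 0.0317). Fbl rose by 0.17, a change of 1.13-fold, and Nop58 was at 0.22 with an adjusted p of 0.0746. The steps between the groups were small: for Nop56 the highest control and the lowest treated library were 75.3 and 82.0 RPKM.

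Box H/ACA snoRNPs turn uridines of ribosomal RNA into pseudouridines, and a core of 4 proteins makes up each particle. With T-5224 their genes did not move as one. Dkc1, dyskerin, the pseudouridine synthase, went from 7.88 and 7.58 RPKM to 19.6 and 19.5 RPKM, a log2 fold change of 1.28 (SE 0.07, adjusted p = 1.13e-08). Gar1, which helps the enzyme release its substrate, went from 13.1 and 12.1 RPKM to 28.2 and 27.4 RPKM, a log2 fold change of 1.11 (SE 0.07, adjusted p = 2.78e-08). Nhp2 rose by 0.68. Nop10, the smallest of the 4, was at 57.3 and 57.5 RPKM with DMSO and at 53.3 and 53.2 RPKM with T-5224. Its treated libraries lay below both controls, as in 44.5% of all genes. The log2 fold change of -0.11 did not pass (SE 0.05, adjusted p = 0.0779).

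With SB431542 the enzyme and Nhp2 rose, which was 50% of the 4, beside 10.2% of all genes. Dkc1 was at 22.4, 18.3 and 18.4 RPKM with DMSO and at 24.7, 24.7 and 26.7 RPKM with SB431542, a log2 fold change of 0.36 (SE 0.09, adjusted p = 0.0264). Nhp2 was at 88.1, 83.2 and 78.8 RPKM and at 98.9, 101 and 102 RPKM, a log2 fold change of 0.27 (SE 0.06, adjusted p = 0.0164). Gar1 at 0.14 and Nop10 at 0.14 had overlapping groups and did not pass.

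The 8 factors of the small subunit processome and of later small subunit steps all rose with T-5224, by a median of 0.95 on the log2 scale. Of all genes, 40.3% rose. Wdr43, a subunit of the early complex that also works in polymerase I transcription, went from 24.3 and 22.2 RPKM to 60.7 and 57.8 RPKM, a log2 fold change of 1.33 (SE 0.06, adjusted p = 4.60e-09). Nop14 went from 25.2 and 22.5 RPKM to 60.6 and 60.2 RPKM, a log2 fold change of 1.32 (SE 0.06, adjusted p = 5.41e-09). Noc4l, the partner of Nop14, rose by 0.82. Rrp12 rose by 1.12 and Utp15 by 0.89, while the large scaffold protein Utp20, at 0.47, and the helicase Ddx10, at 0.42, were at the low end. Tsr1, a GTPase-like factor of late steps, was at 15.9 and 16.6 RPKM and at 33.0 and 33.0 RPKM. On the scale of log2(RPKM + 0.5), its log2 fold change of 0.998 put it just short of 2-fold, as was Nle1 of the large subunit at 0.99. Without the added 0.5 the ratios of their mean RPKM were 2.03 and 2.07. Gar1 and Rrp12, at 1.11 and 1.12 on the log2 scale, were just past 2-fold.

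Of the same 8, 3 rose with SB431542 (37.5%), beside 10.2% of all genes. Utp15 was at 12.7, 14.8 and 13.4 RPKM with DMSO and at 16.9, 17.3 and 17.9 RPKM with SB431542, a log2 fold change of 0.34 (SE 0.07, adjusted p = 0.0145). Rrp12 was at 13.5, 15.0 and 15.2 RPKM and at 17.1, 17.3 and 18.4 RPKM, a log2 fold change of 0.27 (SE 0.07, adjusted p = 0.0287). Noc4l rose by 0.23. Nop14, which rose strongly with T-5224, was at 47.3, 36.1 and 34.4 RPKM with DMSO and at 36.1, 38.4 and 39.8 RPKM with SB431542, with a log2 fold change of -0.03 (adjusted p = 0.875). The first control again exceeded all other libraries, and without it the value was 0.11. Over the fits with 1 library left out the value ran from -0.12 to 0.11.

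The 11 large subunit factors rose with T-5224 without exception, by a median of 0.99 on the log2 scale. The share over all genes was 40.3%. Wdr74, which works with an ATPase that strips factors from the precursor, went from 34.3 and 35.8 RPKM to 99.4 and 97.6 RPKM, a log2 fold change of 1.48 (SE 0.05, adjusted p = 4.81e-10). Gnl3, nucleostemin, a nucleolar GTPase high in stem and tumour cells, went from 8.11 and 8.92 RPKM to 24.1 and 24.7 RPKM, a log2 fold change of 1.47 (SE 0.07, adjusted p = 5.17e-09). Ebna1bp2 rose by 1.16, the ribosomal RNA methyltransferase Nop2 by 1.12, Noc3l by 0.96, Rrp1b by 0.73 and Nop16 by 0.63. Pes1, Bop1 and Wdr12 form a stable complex that is needed to process the large subunit RNA, and they rose by unequal amounts. Pes1 went from 30.9 and 29.2 RPKM to 39.9 and 37.4 RPKM (log2 fold change 0.36, SE 0.06), Bop1 from 30.8 and 30.9 RPKM to 47.6 and 44.4 RPKM (0.57, SE 0.06), and Wdr12 from 3.17 and 2.71 RPKM to 7.71 and 6.90 RPKM (1.18, SE 0.10). The differences between these genes were not tested, and Wdr12 had the lowest DMSO level of the 39 genes in this table.

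With SB431542 3 of the 11 rose (27.3%), beside 10.2% of all genes. Gnl3 was at 19.1, 16.6 and 15.8 RPKM with DMSO and at 20.2, 21.2 and 22.0 RPKM with SB431542, a log2 fold change of 0.29 (SE 0.08, adjusted p = 0.0386). Wdr12 rose by 0.25 and Nop2 by 0.22. Nle1, a factor recognised by a large ATPase as the subunit matures, was at 5.37, 6.18 and 7.37 RPKM and at 7.97, 7.40 and 8.47 RPKM, with a log2 fold change of 0.32 that did not pass (SE 0.11, adjusted p = 0.0811). The controls of Nle1 spread more widely than the step between the groups, from 5.37 to 7.37 RPKM.

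The count with SB431542 depended on single libraries. It was 25 of 39 without DMSO library 1, 2 without DMSO library 2, 7 without DMSO library 3, 1 without SB431542 library 1, and 0 without SB431542 library 2 or 3. The share of all genes called higher moved too, to 19.9%, 5.93%, 7.80%, 3.28%, 2.78% and 2.85% in the same order. In each of these fits 0 members were lower. With T-5224 the count of higher members stayed at 35 or 36 without any 1 library.

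The rest of the ribosome biogenesis machinery was read from a list of 91 other factors, of which 90 were tested in each table. With T-5224 76 of the 90 rose (84.4%) and 4 fell (4.44%), beside 40.3% and 39.4% of all genes. A rise of over 2-fold was seen in 21, beside 10.4% of all genes, and the median log2 fold change was 0.62. By step, 34 of 39 other small subunit factors and 31 of 37 other large subunit factors rose, as did all 5 genes of snoRNP assembly and 6 of 9 other polymerase I genes. Wdr75 (1.43) and Heatr1 (1.32) led the small subunit factors, and Nmd3 (1.39), the adapter for export of the large subunit, and Gtpbp4 (1.38) led the large. In the assembly group the values were 1.08 for Nufip1, 0.93 for the ATPase Ruvbl2, 0.90 for Shq1, 0.86 for Ruvbl1 and 0.62 for Naf1. Tcof1, treacle, which brings polymerase I factors to ribosomal DNA, rose from 7.88 ± 0.68 to 20.6 ± 0.07 RPKM (SD, n = 2 each), a log2 fold change of 1.34, and Taf1d rose by 0.87. The 4 that fell were Nvl (-0.83), Cd3eap, a polymerase I subunit (-0.77), Dhx37 (-0.21) and Ddx24 (-0.16).

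With SB431542 21 of the 90 rose and 0 fell, 23.3% beside the 10.2% of all genes, with a median of 0.13. The 21 were 8 small subunit factors, led by Emg1 (0.41), an RNA methyltransferase, and Heatr1 (0.35), 10 large subunit factors, led by the giant ATPase Mdn1 (0.33) and Rrp8 (0.31), Ruvbl2 (0.30), Tcof1 (0.28) and the polymerase I subunit Polr1d (0.21). At an unadjusted p under 0.05, 33 of the 90 were higher and 3 lower, beside 19.1% and 17% of all genes. Without DMSO library 1 the count of those that rose was 40 and without SB431542 library 2 or 3 it was 2.

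RNA polymerase III makes the small 5S ribosomal RNA and transfer RNAs, and its 14 genes were split with T-5224. There 8 rose, led by Polr3e (1.35) and Polr3c (0.56), and 3 fell, Polr3g (-2.11), Polr3b (-0.64) and Polr3k (-0.49). These were 57.1% and 21.4% of the 14, beside 40.3% and 39.4% of all genes. Polr3g, a subunit known from stem and cancer cells in place of its paralog Polr3gl, went from 16.1 ± 0.59 to 3.34 ± 0.47 RPKM (SD, n = 2 each). With SB431542 0 of the 14 passed in either direction by limma, beside 10.2% of all genes higher and 10.0% lower. Their median log2 fold change was 0.05.

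**Figure D3:**
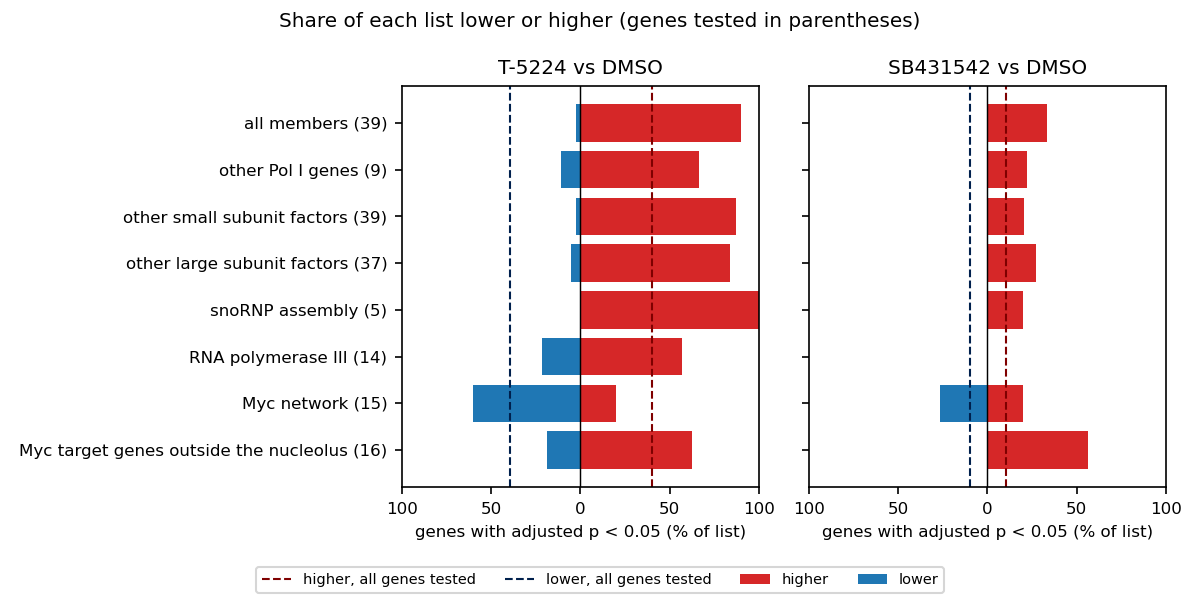
Share of each gene list, in percent of its tested genes (number in parentheses), that was lower (blue, to the left) or higher (red, to the right) at an adjusted p under 0.05 with T-5224 and with SB431542. Dashed lines give the share of all genes tested, 39.4% lower and 40.3% higher with T-5224, and 10.0% and 10.2% with SB431542. With T-5224 the bars for the members and the other processing factors pass the line on the right, and the bar of the Myc network passes the line on the left.

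Myc acts in a network in which Max is the shared partner and the Mxd proteins and Mnt compete with Myc for it and repress. Of 15 network genes tested besides Myc, 9 fell (60%) and 3 rose (20%) with T-5224, beside 39.4% and 40.3% of all genes. Mxd4, a Myc antagonist, showed by far the largest change. It was at 100.3 ± 7.72 RPKM with DMSO and at 7.16 ± 1.45 RPKM with T-5224 (SD, n = 2 each), a log2 fold change of -3.73 (SE 0.11, adjusted p = 7.03e-11). Mxd1 went from 3.48 ± 0.06 to 0.859 ± 0.04 RPKM, a log2 fold change of -1.55, and Max, named after its values were seen, from 19.1 to 16.3 RPKM (-0.22). The 3 that rose were Huwe1 (0.96), a ubiquitin ligase, Mlx (0.70), a partner of Mxd proteins in place of Max, and Mxd3 (0.30). The calls of Max and Mxd3 were lost without T-5224 library 2 (adjusted p = 0.0785 and 0.0544, limma), and that of Mxd3 without T-5224 library 1 as well (0.0696).

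With SB431542 4 of the 15 fell (26.7%) and 3 rose (20%), beside 10.0% and 10.2% of all genes. Mxd4 fell here too, from 27.7 ± 0.80 to 10.8 ± 2.80 RPKM (SD, n = 3 each), a log2 fold change of -1.36 (SE 0.17, adjusted p = 2.87e-03), with all treated libraries (7.53 to 12.4 RPKM) below all controls (26.8 to 28.3 RPKM). Mnt fell by 0.40, Fbxw7, a ubiquitin ligase that marks Myc for destruction, fell by 0.39, and Mxd1 fell by 0.36. Mlx rose by 0.30, Mxd3 by 0.26 and Trrap, a coactivator that Myc binds, by 0.20. Fbxw7 and Trrap were named because the counts are small. Mxd4 and Mnt passed with any 1 library left out.

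Classic Myc targets outside the nucleolus were a list of 16 enzymes, chaperones and growth genes. With T-5224 10 of them rose (62.5%) and 3 fell (18.8%), beside 40.3% and 39.4% of all genes. Srm, spermidine synthase, went from 34.8 ± 0.11 to 193 ± 1.87 RPKM (SD, n = 2 each), a log2 fold change of 2.45, and Tfrc, the transferrin receptor, from 13.3 ± 1.09 to 70.5 ± 3.63 RPKM, a log2 fold change of 2.36. Those that fell were Ldha, lactate dehydrogenase A (-1.60), Apex1 (-0.61) and Phb (-0.57). With SB431542, where Myc itself had not passed, 9 of the 16 rose (56.2%) and 0 fell, beside 10.2% and 10.0% of all genes. Odc1, the enzyme at the head of polyamine synthesis, went from 43.7 ± 1.34 to 75.4 ± 3.57 RPKM (SD, n = 3 each), a log2 fold change of 0.78 (SE 0.06, adjusted p = 2.69e-04), and Tfrc from 65.5 ± 9.38 to 105 ± 1.99 RPKM, a log2 fold change of 0.69.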

How the data were processed

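RNA was measured by stranded mRNA sequencing in 10 libraries of ASZ001 cells. The authors aligned reads to mm9 with TopHat and deposited RPKM from HOMER in 2 tables, normalized separately. How HOMER assigned reads by strand or to near-identical copies is not given in the sources used here, so levels of genes with processed copies, such as Npm1, are uncertain. The level of Fbl is uncertain too, as its DMSO means in the 2 experiments lay far apart. The DMSO columns of the T-5224 table are numbered 1 and 2, where the labels number 4 and 5. Rows named by a date were dropped (22 and 23). Genes with a mean of at least 1 RPKM (10842 and 10809) were tested with limma 3.58.1 (R 4.3.3; empirical Bayes, mean-variance trend) on log2(RPKM + 0.5), with Benjamini-Hochberg adjustment over all of them. Fold changes are on that scale, which understates changes of low genes. Values after a mean are standard deviations.

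The members and lists were chosen with earlier results of these data known. Genes given library by library are Myc, the RNA polymerase I members and, in each role, the 2 members with the largest change in each comparison. Further members given by library (Ncl, Npm1 and Nop14 with SB431542, and Fbl, Nop10, Tsr1, Pes1, Bop1 and Wdr12 with T-5224) were chosen after their values were seen. From other lists, up to 2 genes that rose most and 2 that fell most are named, if they passed and their groups did not overlap, and other genes are named where a count was small. Depth was worked out from the whole-read steps of RPKM of genes under 250 bases, and the spread between libraries sets the errors. Promoters came from RefSeq and positions from GENCODE of NCBIM37. The fit was tested on simulated data. Alternatives were pseudocounts of 0.1 and 1, no filter or a mean of at least 5 RPKM, median centring, quantile normalization, no trend, a 2-fold limit, an unadjusted p, the replicate number as a block, and leaving out each library.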

Additional observations from a re-analysis of the deposited data

Results flagged for a closer look

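In 8 genes of the Myc network, biogenesis and target lists, and in 0 of the 39 members, every treated library lay on one side of its DMSO libraries with SB431542 and on the other side with T-5224. Of all genes tested, 21.3% lay wholly below and 23.9% wholly above their DMSO libraries with SB431542, and 44.5% and 45.1% with T-5224. The share of all genes on opposite sides was not counted, so neither count can be read as particular to these genes. Phb, prohibitin, and Trrap, a scaffold that Myc recruits, passed in both experiments: the log2 fold change of Phb was 0.32 with SB431542 and -0.57 with T-5224, and that of Trrap was 0.20 and -0.59. Another 4 passed with T-5224 and not with SB431542. Ldha, lactate dehydrogenase A, had 0.24 with SB431542 and -1.60 with T-5224, and Dhx37, a helicase of the small subunit processome, had 0.13 and -0.21. Gnl2, a nucleolar GTPase, had -0.28 with SB431542 and 0.55 with T-5224, and Dcaf13, a small subunit factor, had -0.16 and 0.24. The remaining 2 passed in neither experiment: Nme2, a nucleoside diphosphate kinase, had 0.35 and -0.056, and Cdk4, a cell cycle kinase, had 0.15 and -0.079. The differences between the inhibitors were not tested.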

How the results depend on the processing

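The SB431542 results for the members and the other biogenesis genes rest on 3 libraries a group and on fold changes under 2-fold. There the number of members higher (13) was 7 with no filter on low values, 8 with quantile normalization, 21 at an unadjusted p, 0 with the 2-fold limit and 0 to 25 with 1 library left out. Other biogenesis genes higher (21) were 33, 0 and 2 to 40 under the last 3 of these, and those lower (0) were 3 at an unadjusted p and 0 to 1 with 1 library left out. With 1 library left out, log2 fold changes that were near 0 changed sign: Myc -0.12 to 0.049, Ncl -0.044 to 0.20, Npm1 -0.026 to 0.21, Nop14 -0.12 to 0.11, Ddx10 -0.080 to 0.13, Ebna1bp2 -0.038 to 0.14, Taf1d -0.35 to 0.040, Cd3eap -0.069 to 0.034 and Max -0.15 to 0.067. Npm1 was at -0.019 with quantile normalization. With T-5224, where a left-out library leaves 1 in a group that is assumed to vary like the others, members lower (1) were 2 with no filter, median centring or quantile normalization, Nop10 being the added one, and 0 with the 2-fold limit. That limit left 15 members higher, and 0 other biogenesis genes lower and 21 higher. The median log2 fold change of members was 0.77 with quantile normalization and 0.78 to 0.85 with 1 library left out. Polr1c passed with a mean of at least 5 RPKM, with median centring and without DMSO library 1 or T-5224 library 2. Of the network and biogenesis genes called with T-5224, Mxd3 lost its call without T-5224 library 1 or 2, Dhx37 without library 1, Max and Ddx24 without library 2, and Mnt without T-5224 library 1 or DMSO library 2. The causes were not tested.

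SB431542 and DMSO libraries share the numbers 1 to 3, but their deviations from the group means correlated at -0.15, 0.15 and -0.09 within a number, and not every library correlated best with its own number. With the replicate number as a block 2 members and 6 other biogenesis genes were higher. No paired analysis was possible for T-5224 because the labels number its DMSO libraries 4 and 5 and its T-5224 libraries 1 and 2, and the column numbers of the table are tied to no label.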

Other observations

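The DMSO libraries of the 2 tables, normalized separately and not tested against each other, held the members at different levels. The mean DMSO level in the T-5224 table was below that in the SB431542 table for 37 of the 39 members, with a median ratio of 0.639, where the median over 10494 genes was 1.01 and the middle of the genes ran from 0.755 to 1.33. Fbl was at 88.2 RPKM (DMSO mean, SB431542 table) and at 5.40 RPKM (DMSO mean, T-5224 table), a ratio of 0.0612. Npm1 was at 678 and 92.5 RPKM, a ratio of 0.136. The cause was not tested, and the experiment, the table and the libraries cannot be told apart.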
